A study of Selaginella kraussiana with 4 samples.

Results

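Among merged loci of the lycophyte Selaginella kraussiana of at least 300 bp, 921 met a rule for loci low in the leaf only. In each, the leaf library lay a set amount below the rhizophore, seedling and stem libraries, which lay within a set limit of each other. The levels in the rhizophore, seedling and stem were not high in every member. These loci are 921 of 26055 merged loci of at least 300 bp, and of 31210 in all. RNA was taken from 4 tissues of plants grown at 26 °C with 16 h of light and 8 h of dark, and 1 library was sequenced per tissue. No agent or mutation is named, and how many plants went into a library is not given in the sources used here. The study's text names the tissues microphyll, rhizophore tip, shoot tip and stem. Its leaf library is taken as the microphyll and its seedling library as the shoot tip. The tables list loci by contig of the authors' draft assembly and by position, here counted from 1. They carry no gene names, so no tissue could be checked against marker genes and no function can be given to a locus.

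Lycophytes such as Selaginella form microphylls, small leaves that usually have a single unbranched vein and carry out most of the photosynthesis of the shoot. Their rhizophores are leafless, root-bearing axes that grow from branching points. The shoot tip and the rhizophore tip hold dividing cells, whereas a grown microphyll has finished its growth. How old the sampled microphylls were is not given in the sources used here. The stem carries the vascular strands that join these organs. Loci with less RNA in the microphyll than in the axes and tips are what the rule below collects.

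Listed loci sharing 1 bp or more of a contig, in any of the 4 tables, were joined into a merged locus, and FPKM was added up within it for each library. FPKM counts fragments per kilobase of a transcript, scaled to 1000000 fragments of the library. A library with no locus there was given 0, which means that no locus was listed and not that no RNA was present. The level was log2 of (FPKM + 1). A merged locus was a member if the lowest level of the rhizophore, seedling and stem lay at least 1.5 above the leaf, which is 2.83-fold at a high FPKM, and if those 3 levels lay less than 2 apart. The first condition alone was met by 1139 loci (4.37%). The members were thus chosen by the FPKM of all 4 libraries, so the levels below are a description and carry no test. With 1 library per tissue there is no replicate check of any difference, and a tissue with fewer cells of a type cannot be told apart from one with less RNA per cell.

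More loci were low in the leaf only than in any other library only. The 921 members were 3.53% of the merged loci of at least 300 bp. With the same thresholds and another library in the place of the leaf, 413 loci (1.59%) were low in the rhizophore only, 219 (0.841%) in the stem only and 205 (0.787%) in the seedling only. With the sign turned, 841 loci (3.23%) were high in the leaf only. This order did not hold under every scaling. When FPKM was rescaled to TPM, in which each library sums to the same total, 202 loci were low in the leaf only and 381 in the rhizophore only. That sum is held mostly by short loci, and when it was taken over merged loci of at least 300 bp, a choice made after seeing the data, 810 were low in the leaf only and 366 in the rhizophore only. The leaf was not the shallowest library. Per the bounds of the FPKM values, the rhizophore library held 0.924 of the fragments of the leaf, the stem 0.865 and the seedling 1.07.

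**Figure D1:**
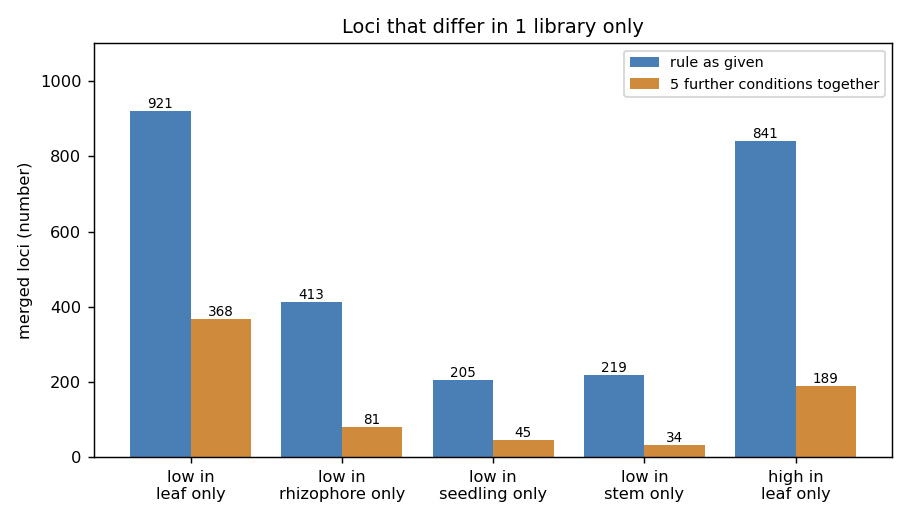
Number of merged loci of at least 300 bp that differed in 1 library only, by the rule as given (blue) and with 5 further conditions on listing, bounds, length and fragments (orange). The leaf had the most low loci in both, 921 and 368, against 413 and 81 for the rhizophore.

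Among loci of at least 300 bp, the members held a smaller part of the summed FPKM in the leaf than in the other tissues. The rule favours this direction. Shorter loci, which held most of the summed FPKM in each library, are left out of these shares, so the shares depend on the length limit. The FPKM of the members summed to 0.660% of the total over loci of at least 300 bp in the leaf. In the rhizophore this share was 5.59%, in the seedling 4.90% and in the stem 4.84%. Their median FPKM was 2.77 in the leaf, 25.5 in the rhizophore, 22.9 in the seedling and 21.8 in the stem, and over all 26055 loci the medians were 7.14, 8.79, 8.67 and 7.77 in the same order. At the median, members thus lay below the typical locus in the leaf and above it in the other 3. The lowest of the 3 other FPKM values ranged from 1.83 to 1083, with a median of 17.8.

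The size of the deficit varied widely. The median difference between the lowest other library and the leaf was 2.01 on the log2(FPKM + 1) scale, with quartiles of 1.71 and 2.61 and a maximum of 8.31. Over all loci tested the median of the same difference was -0.38, and the leaf was the lowest of the 4 in 27.5% of them. A difference of at least 2 was reached by 466 members, of at least 3 by 150, of at least 4 by 55 and of at least 5 by 18. Most members were therefore moderately low in the leaf by this measure, and a small tail had large differences. Part of this tail was not listed in the leaf and entered as 0, among it the maximum of 8.31, so those differences have no measured size. Among the listed members the maximum was 6.36, on contig 048857, where short loci inside the merged locus gave most of the other values. Among the 662 members that the leaf library listed, the ratio of the lowest other FPKM to the leaf FPKM, without a pseudocount, had a median of 4.75 and a range from 2.87 to 94.3. It was at least 8 in 139 of them and at least 16 in 45.

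**Figure D2:**
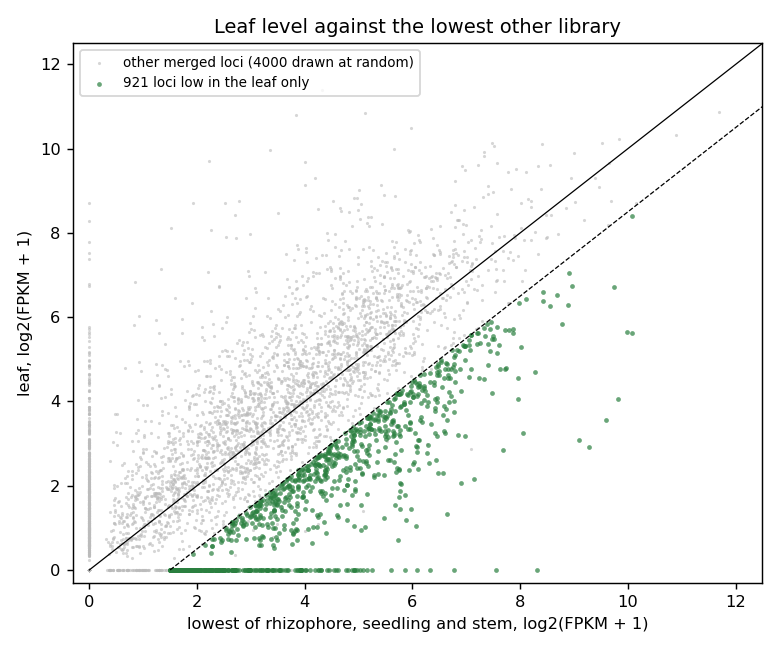
Level in the leaf (y axis) against the lowest level of the rhizophore, seedling and stem (x axis), both as log2(FPKM + 1), for the 921 members (green) and 4000 other merged loci drawn at random (grey). The solid line marks equal levels, the dashed line a difference of 1.5, and the green points on the x axis are the 259 members that the leaf library did not list.

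The leaf library listed no locus at 259 members (28.1%, Wilson 95% interval 25.3% to 31.1%, which covers counting error only), and at 3808 (14.6%) of all loci tested. Most of the 259 were weak in the other tissues too. The lowest other FPKM had a median of 3.82 in them and of 28.6 in the 662 listed members. Of the 177 members with a lowest other FPKM under 5, 163 were not listed in the leaf, and of the 92 members at 100 or more, 3 were not listed. A missing entry does not fix how low the leaf was. If the leaf had held 11 fragments, a number below which loci were seldom listed, 235 of the 259 would still have been lower in the leaf than in every other library, but 89 would have kept the difference of 1.5. With this floor 751 members in all kept it.

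Few loci that the leaf did not list were abundant elsewhere. Contig 047042 held the highest of them, at positions 697 to 1644, with an FPKM of 985 in the rhizophore (bounds 972 to 998, read as a 95% interval), 559 in the seedling (551 to 566) and 317 in the stem (309 to 324). The rhizophore value was the highest and the stem value the lowest, and the 3 intervals did not overlap. In the leaf, 11 fragments would correspond to an FPKM of 0.455 here. The next locus on this contig, from 1811 to 4679, had an FPKM of 114 in the leaf, 58.4 in the rhizophore, 71.1 in the seedling and 119 in the stem, so the same contig was well represented in the leaf RNA.

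Contig 076460 (653 to 1052) had 299 in the rhizophore, 186 in the seedling and 241 in the stem, and a leaf level of 11 fragments would be an FPKM of 1.68. Its order was rhizophore, stem, seedling. At contig 087358 (1 to 873) the values were 109, 115 and 140 in the rhizophore, seedling and stem, a narrow range with the stem on top, and 11 leaf fragments would be 0.427. Contig 103783 (1 to 856) showed 75.6, 57.2 and 92.2 in the same order of tissues, against 0.310 for 11 leaf fragments. These 3 loci were alone on their contigs among loci of at least 300 bp. Contig 092442 (1 to 320) was shorter, with 139, 67.0 and 90.6 and an 11-fragment level of 3.50.

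Among members that the leaf library listed, 6 were chosen for the highest FPKM in the lowest of the other libraries. Contig 090357 (844 to 3502) had an FPKM of 104 in the leaf (99.3 to 109), 966 in the rhizophore (960 to 972), 878 in the seedling (872 to 883) and 853 in the stem (847 to 859). The leaf was 8.18-fold below the stem, the lowest of the others, and the other 3 lay within 0.18 of each other on the log2 scale. The bounds implied 1765 fragments in the leaf and at least 76386 in each other library. Such numbers are understated where the authors' model added variance, so their ratio does not measure the deficit. Contig 042895 (1 to 620) had 48.5 in the leaf, 1724 in the rhizophore, 1596 in the seedling and 1075 in the stem, a 22.2-fold deficit. Contig 038280 (1 to 505) was at 339 in the leaf, the highest leaf value of all members, and at 1083, 1337 and 1595 in the rhizophore, seedling and stem. Its leaf value was 3.19-fold below the rhizophore, so a member can be abundant in the leaf and still be lowest there.

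Contig 043009 (2353 to 3274) was the member with the highest single value, an FPKM of 3384 in the rhizophore. It had 49.3 in the leaf, summed over 2 overlapping loci, 1008 in the seedling and 1715 in the stem. A neighbouring locus 64 bp away (327 to 2288) had 32.9 in the leaf, 52.6 in the seedling and 62.7 in the stem and was not listed in the rhizophore, which does not fix its level there. Contig 048648 (1 to 646) had 10.9 in the leaf and 777, 851 and 789 in the rhizophore, seedling and stem, a 71.5-fold deficit. The leaf value was again a sum of 2 overlapping loci, at 5.22 and 5.64. Contig 084852 (98 to 1945) had 15.6 in the leaf and 901, 930 and 913 in the others. The rhizophore value was a sum of 2 overlapping loci, at 329.6 and 572, and with this sum the 3 lay within 0.05 of each other on the log2 scale. In contig 105738 (525 to 3674) the leaf FPKM was 0.646 with bounds of 0 to 2.39, against 117, 69.9 and 52.1. Its upper bound still lay below the lower bound of the stem, 46.7.

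**Figure D3:**
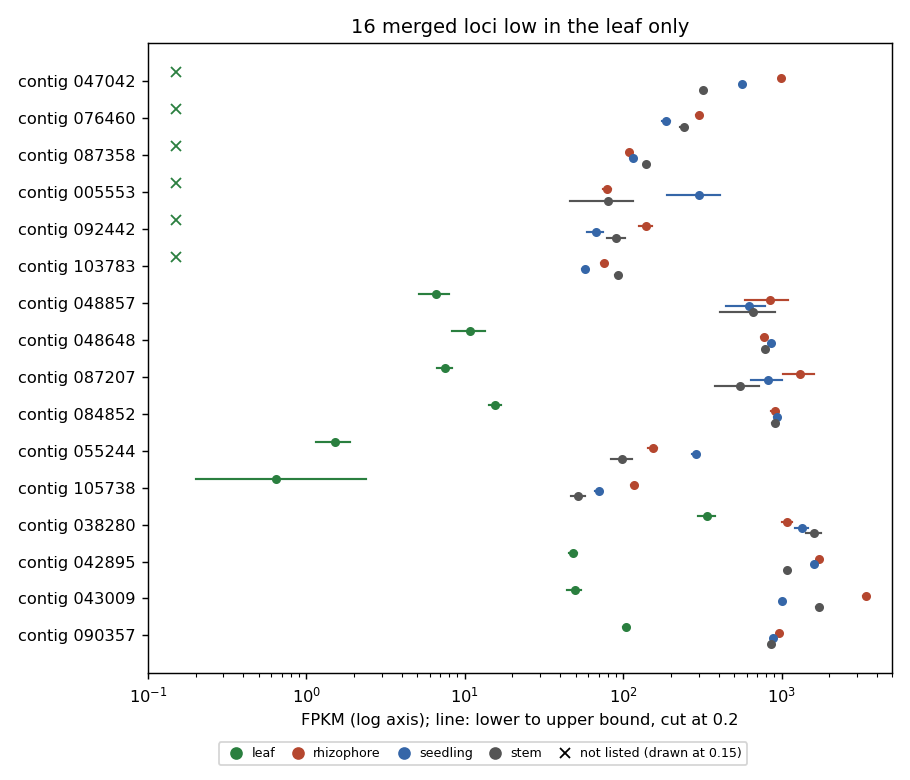
FPKM of 16 members in the 4 libraries on a log axis, with lines from the lower to the upper bound and crosses for loci that the leaf library did not list. In the upper 6 the leaf is not listed, in the others it lies to the left of the other libraries, and on contigs 087207 and 048857 the other values come mostly from loci of 117 to 123 bp inside the merged locus.

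In some members with large differences the libraries listed loci of unlike length. In contig 087207 (1 to 1133) the leaf library listed 1 locus over the whole length with an FPKM of 7.48. The rhizophore, seedling and stem each listed a long locus at 1.64, 3.34 and 1.88, below the leaf, and a second one of 119 to 123 bp at 1305, 818 and 547. The sums of 1306, 821 and 549 met the rule, although the bounds implied 373 fragments in the leaf and 145, 220 and 98.4 in the others. Contig 048857 (1 to 447) was alike. The leaf listed 1 locus of 445 bp at 6.55 with 87.9 implied fragments, and the other 3 each listed a locus of 117 to 119 bp at 601 to 786. The other 3 had 95.5, 121 and 46.0 implied fragments in the rhizophore, seedling and stem. The leaf thus had the most implied fragments of the 4 libraries on contig 087207 and more than the stem on contig 048857. The leaf FPKM was nevertheless the lowest in both. Contig 005553 (952 to 1481) was not listed in the leaf. It had 79.3 in the rhizophore over 530 bp, 299 in the seedling over 121 bp and 80.3 in the stem over 145 bp, and 11 leaf fragments would correspond to as much as 118.

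Such members were a minority. In 96 of the 921, loci shorter than 300 bp held most of the FPKM of at least 1 other library, and in 24 of these they did so in all 3. Several loci in a library occurred in 248 members, with up to 6 in 1 library. An upper bound in the leaf below the lower bound of each other library was found in 885 members (3.4% of the loci tested), counting an unlisted leaf as 0. Of the 662 listed members, 633 had such bounds and 29 did not, a count that the difference of 1.5 asked by the rule favours, so it is no support for the members. In 82 the leaf had at least as many implied fragments, relative to its total, as the other library with the fewest. Leaving out all loci under 300 bp before merging, a choice made after seeing the data, gave 923 members. That number is close to 921, but how many members the 2 lists shared is not given here.

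With 5 conditions added to the rule after seeing the data, 368 of the 921 members remained. The conditions were at most 1 locus per library, bounds apart, loci that span at least 50% of the merged length in each library that lists it, implied fragments that also differ by 1.5 on the log2 scale, and the difference kept at the 11-fragment level where a library listed none. Among the loci low in the rhizophore only, 81 met the same conditions, in the seedling 45 and in the stem 34, and among those high in the leaf only 189. The 368 had a median length of 854 bp, and 71 of them were not listed in the leaf. In the 297 listed ones the leaf lay 5.06-fold below the lowest other library at the median. With an unlisted leaf set to 0, the loci on contigs 047042, 076460, 087358, 092442 and 103783 held the largest differences among the 368. None of them was listed in the leaf, so these differences have no measured size. At the 11-fragment level they were 7.77, 6.13, 6.27, 3.92 and 5.47. The listed locus on contig 105738 had 5.01, so the place of contig 092442 rests on the 0.

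The other 3 tissues were close to each other in most members, within what the rule allowed. The difference between the highest and the lowest of them had a median of 0.73 on the log2 scale and was under 1 in 601 members (65.3%). The rhizophore was the highest of the 3 in 379 members (41.2%), the stem in 305 (33.1%) and the seedling in 237 (25.7%). Over 13499 other loci with the same limits on these 3 libraries, the shares were 38.0%, 27.3% and 34.7%. The share of the seedling was 25.7% in members and 34.7% in these loci, and that of the stem 33.1% and 27.3%, a description with no replicate check. The median of the seedling minus the stem was -0.02 in members and 0.13 in the other loci. For the rhizophore minus the seedling it was 0.13 and 0.04, and for the rhizophore minus the stem 0.14 and 0.13. A lead of at least 1 was held by the rhizophore over the stem in 117 members, by the rhizophore over the seedling in 95, by the stem over the seedling in 91, by the seedling over the stem in 76, by the stem over the rhizophore in 57 and by the seedling over the rhizophore in 43.

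**Figure D4:**
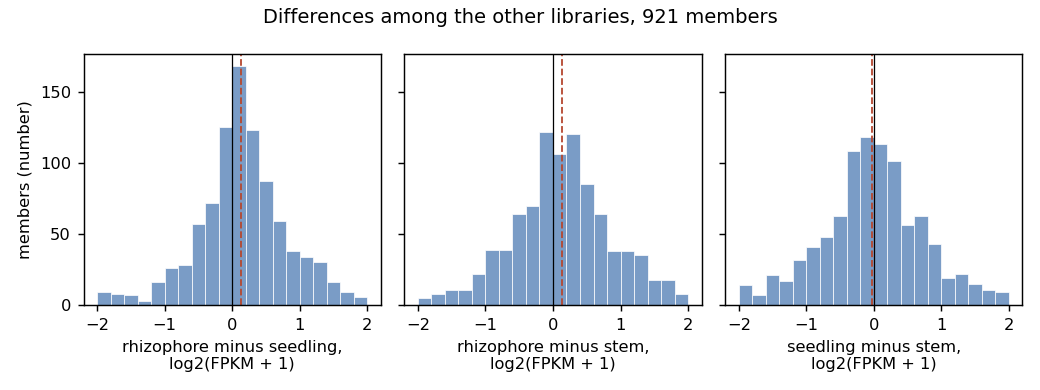
Differences in log2(FPKM + 1) between the rhizophore, seedling and stem over the 921 members (bars of 0.2, y axis: number of members), with the median as a dashed red line. The medians are 0.13, 0.14 and -0.02, and the rule confines all differences to less than 2.

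Members were found at all lengths. Their median length was 1062 bp, against 1014 bp over all loci tested. They made up 3.85% of the loci from 300 to under 600 bp (Wilson 95% interval 3.44% to 4.31%), 2.96% from 600 to under 1200 bp (2.59% to 3.37%), 3.10% from 1200 to under 2400 bp (2.69% to 3.56%) and 4.40% from 2400 bp (3.88% to 4.997%). The interval of the shortest class overlaps those of the third and the longest class, and the intervals of the 2 middle classes overlap each other. They cover counting error only, treat loci as independent and are no test of a difference between lengths. Of the shortest class 47.9% were not listed in the leaf and of the longest 8.30%, and the median of the lowest other FPKM was 11.4 in the shortest and 31.9 in the longest. Several loci in a library were held by 120 of the 229 members from 2400 bp and by 33 of the 288 under 600 bp. Where the leaf listed a member, its loci spanned a median of 96.5% of the merged length, against 97.6% in the rhizophore, 97.7% in the seedling and 96.1% in the stem.

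The longest members were composites. Contig 102111 (11 to 14654) had an FPKM of 106 in the leaf, 1493 in the rhizophore, 894 in the seedling and 496 in the stem. In the 3 other libraries most of this came from 1 locus of 780 to 878 bp, at 1363, 849 and 431, which lay within longer loci in the leaf. The bounds implied 3603 fragments in the leaf, 5280 in the rhizophore, 2275 in the seedling and 6521 in the stem. These numbers are understated where the authors' model added variance. The rhizophore sum had an upper bound of 32484, mostly from a locus at 11.3 with bounds of 0 to 30938. Contig 065061 (2002 to 13565) had 40.4 in the leaf and 216, 154 and 146 in the others. Its stem value rested on a locus with bounds of 0 to 2392. Contig 094794 (6299 to 17757) had 17.0 in the leaf (16.1 to 17.9) and 90.8, 68.0 and 76.1. The leaf and the stem each listed 1 long locus, and the leaf was 4.00-fold below the seedling sum. The rhizophore and seedling sums included a locus of 600 and 596 bp, at 40.3 and 31.3, that the leaf did not list. On the long locus the rhizophore had 50.6 and the seedling 36.8, against 17.0 in the leaf. Part of the 4.00-fold deficit thus came from the shorter locus, and without it the seedling would not lie 1.5 above the leaf. A neighbouring locus, 89 bp before this member, had 105 in the leaf and 176, 166 and 247 in the others. Another one had 128 in the leaf and 49.5, 43.4 and 53.3. The leaf was thus also the lowest library at the nearer neighbour, by less than 1.5, and the highest at the other.

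Members were scattered over the assembly. The 921 lay on 915 contigs, and 6 contigs held 2 members and none held more. Of the members 73.2% were alone on their contig, counting loci of at least 300 bp, as were 73.7% of all loci tested. The 247 others shared their contigs with 333 loci that were not members or, on some contigs, only with another member. Among these 333, the lowest other library lay below the leaf by 0.32 on the log2 scale at the median, and among 6261 loci on contigs with several loci and no member by 0.38. The leaf was the lowest library in 25.5% of the 333 and in 23.6% of the 6261. The nearest locus of a member was itself a member in 11 of 247 cases (4.45%), against 234 of 6594 (3.55%) for loci that were not members.

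**Figure D5:**
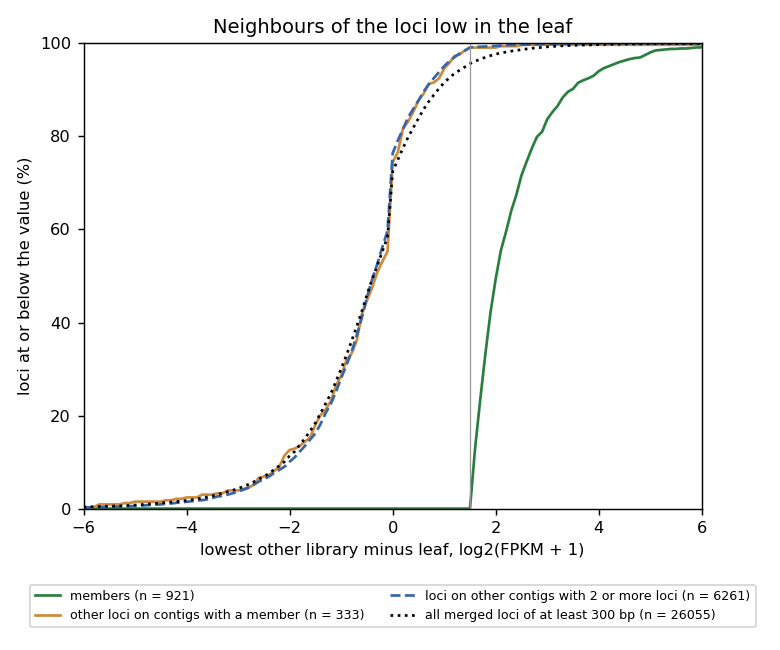
Cumulative share of loci (y axis, %) by the lowest other library minus the leaf (x axis, log2(FPKM + 1)) for the 921 members, the 333 other loci on their contigs, 6261 loci on other contigs with several loci, and all 26055. The grey line marks 1.5. By the rule no member lies below it, and the curves of the 333 neighbours and of the 6261 loci lie close to each other.

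The 3 contigs with 2 members and the highest levels showed pairs that were both low in the leaf by unlike amounts. On contig 055244 the first member (3 to 2274) had 4.91 in the leaf and 54.3, 194 and 49.2 in the rhizophore, seedling and stem. The second (2476 to 5134), 201 bp away, had 1.52 in the leaf and 153, 287 and 98.4. The seedling was the highest in both. In this contig the leaf loci covered 20.9% and 39.1% of the merged lengths, and overlapping loci were summed in the seedling. On contig 047483 the members (79 to 1973 and 3351 to 7397) had 2.55 and 1.89 in the leaf. The stem led in the first, with 67.6 against 29.0 in the rhizophore and 19.8 in the seedling, and the rhizophore led in the second, with 74.5 against 66.7 in the seedling and 50.3 in the stem. Neighbouring members therefore did not share the order of the other tissues here. Contig 099125 (1 to 2351 and 2661 to 3080) had 38.6 and 90.5 in the leaf, and 123, 388 and 149 in the first and 968, 774 and 410 in the second for the rhizophore, seedling and stem. The seedling led in the first and the rhizophore in the second. In the first, the leaf had 15.2 on the locus of 509 bp where the seedling had 368, and 23.4 on the next one, where the stem had 13.7, so the leaf was low in the first part of this merged locus and above the stem in the second.

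The loci nearest to each threshold had close values on both sides of it. Just inside the difference of 1.5 lay contig 045553 (241 to 4519), with 47.1 in the leaf and 135, 136 and 219 in the others, and contig 090222 (1 to 1768), with 2.45 and 17.7, 22.7 and 8.77. Just outside lay contig 076874 (1 to 494), with 0.895 and 4.36, 5.70 and 4.74, and contig 066588 (176 to 951), with 0.553 in the leaf and 3.39 in the stem, the lowest other. Their differences ran from 1.498 to 1.501. The limit on the other 3 tissues was met by contig 104478 (2860 to 4877) at 1.996 and by contig 094738 (3 to 5313) at 1.994, and was missed by contig 091545 (92 to 2831) at 2.001 and contig 055184 (1 to 416) at 2.005. Contig 094738 had 4.12 in the leaf and 76.8, 82.0 and 19.8 in the others. The length limit of 300 bp was just met by contigs 032350 (2 to 301) and 050593 (4 to 303) and missed by contigs 078570 (8 to 306) and 074757 (2977 to 3275) at 299 bp, none of them listed in the leaf.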

How the data were processed

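The data are 4 libraries, 1 for each tissue. Reads were shortened by their first 10 bases, mapped with TopHat to the draft contigs of the study, and assembled and quantified with Cufflinks. The authors deposited 1 table of loci in FPKM per library, with a lower and an upper bound. Every locus had the status OK. The tables held 30999 loci for the leaf, 29549 for the rhizophore, 30393 for the seedling and 28860 for the stem. Loci were merged by overlap of at least 1 bp, and FPKM values and bounds were summed per library. Fragment numbers were derived from the bounds and taken as the square of 2 FPKM over the distance to the upper bound, which holds if the bounds span 2 Poisson standard deviations and understates it where the authors' model added variance. Library totals relative to the leaf came from the median of fragments per FPKM at between 1496 and 1619 loci of at least 600 bp with ends within 10 bp in both libraries. A locus not listed was set at 11 fragments for the floor, at the highest FPKM that the other libraries gave. No test was made. The merging and the rule were run on simulated data with 1 locus per library at each merged locus, lowered only at loci of at least 600 bp. That simulation held no short loci inside longer ones and no sums of several loci, so it says nothing about such members. Python 3.11.15, pandas 2.3.3, NumPy 2.4.6 and SciPy 1.17.1 were used.

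The members, the lists and the rules were chosen with earlier results of these data known. The loci named are the 6 members listed in all libraries with the largest difference, the 6 not listed in the leaf and the 6 overall with the highest lowest-other FPKM, the 3 longest, those on the 3 contigs first by number of members, where 6 tied at 2 and the highest summed lowest-other FPKM decided, and the 2 on either side of each threshold. Alternatives were the pseudocount, scaling, length, a minimum FPKM, the size of the difference and spread, the bounds, the overlap, several loci per library and listing. No sequence is used here.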

Additional observations from a re-analysis of the deposited data

How the results depend on the processing

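The number of members followed the settings. It stayed within 1.5 times of 921 with median-of-ratios factors (866), with TPM over merged loci of at least 300 bp (810, added after seeing the data), without a minimum length (1168), from 600 bp (633), with bounds apart (885), with an overlap of 50% (931), with at most 1 locus per library (673), for loci listed in all 4 libraries (662) and with the floor of 11 fragments (751). In the order low in the leaf, rhizophore, seedling and stem only, and high in the leaf only, the reported counts are 921, 413, 205, 219 and 841. A pseudocount of 0.1 turned them into 1456, 730, 388, 510 and 1646, and one of 5 into 383, 172, 75, 69 and 374. They were 202, 381, 82, 42 and 577 with TPM, 601, 228, 124, 93 and 466 with an FPKM of at least 10, 466, 212, 106, 99 and 377 at a difference of 2, and 601, 178, 100, 130 and 619 with a spread under 1. Without a minimum length, the counts low in the rhizophore and stem and high in the leaf were 642, 377 and 1761. From 600 bp, the last 4 counts were 267, 125, 110 and 430. With at most 1 locus per library the rhizophore and seedling had 253 and 131. Among loci listed in all libraries the rhizophore and stem had 252 and 94 and the leaf 403 high ones, and with the floor the stem had 118 and the leaf 550 high ones. Of the alternatives added after seeing the data, implied fragments that also differ by 1.5 gave 578, 190, 87, 58 and 357, and the 5 conditions together 368, 81, 45, 34 and 189. Among the low lists, TPM was the setting in which the leaf did not have the most. TPM raised the leaf by 1.05 against the rhizophore and 0.79 against the seedling on the log2 scale and lowered it by 0.19 against the stem. Of the 202 members under TPM, 169 were among the 921.

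No replicate could be left out, since each tissue has 1 library. No paired analysis was possible because the libraries share only the number 1 and each tissue has 1 library. Of the 177 members with a lowest other FPKM under 5, 163 were not listed in the leaf, so their deficit has no measured size. The rule itself asks for a low leaf FPKM in these, and the part of depth was not tested.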

Other observations

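A further 218 loci of at least 300 bp were lower in the leaf by at least 1.5 than in each other library but lay 2 or more apart in the other 3, so that 1139 loci (4.37%) passed the difference alone. The rhizophore was the highest in 110 of the 218, the seedling in 58 and the stem in 50. The lowest of the other 3 was the stem in 123, the seedling in 69 and the rhizophore in 26. Of these 218, 105 were not listed in the leaf, against 259 of the 921, and their median difference was 2.24, with a maximum of 10.01.

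The mirrored lists differed in how often the low library listed no locus. This share was 28.1% for the leaf, 33.2% for the seedling (Wilson 95% interval 27.1% to 39.9%), 39.0% for the rhizophore (34.4% to 43.8%) and 57.1% for the stem (50.5% to 63.5%). These intervals cover counting error only, and the differences between the lists have no replicate check. The stem library had the smallest total and the lowest median level in its list, an FPKM of 6.40 in the lowest of the other libraries against 17.8 for the leaf. Their part in the share was not tested. Loci that began within 10 bp of the start of a contig made up 45.2% of the members and 39.3% of all loci tested.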
